A study of Apis mellifera carnica with 38 samples.

Results

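The response of honey bee queens to injected semen was compared between the brain and the fat body, as the semen effect in brain minus the semen effect in fat body for each gene. The members were the 19 libraries of semen-injected (SE) and Hayes solution-injected (HS) queens, of 38 libraries in the series: 4 SE brains, 5 HS brains, 5 SE fat bodies and 5 HS fat bodies. SE queens received whole semen, sperm included, in the abdomen, and HS queens received the semen diluent Hayes solution by the same route. All were virgin queens of Apis mellifera carnica reared from larvae in queenless colonies and kept in mininuclei as adults, and no SE or HS queen was inseminated or mated. The semen came from a pool of many drones, and the wound of the injection was shared by both groups. Whether the injected whole semen also held Hayes solution is not given in the sources used here. The brain of SE queen S83 was left out, as in the study, which dropped brains with few deformed wing virus reads after a first analysis with every brain had given no differentially expressed genes (DEGs) there. The fat body of S83 was kept. The fit also held 7 seminal fluid (SF) libraries, 2 brains and 5 fat bodies. They entered the filter on low counts, the scaling and the estimate of the spread, and not the contrast itself.

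A queen that mates stops flying out to mate, begins to lay and changes her pheromones, and in many insects components of the ejaculate set off parts of this switch. The brain receives and integrates such signals, while the fat body, which lines the abdominal wall, is the insect counterpart of liver and adipose tissue and makes storage proteins, yolk protein and immune peptides. A signal injected into the abdomen meets the fat body first and reaches the brain through the hemolymph or nerves. Whether a gene responds in a single tissue cannot be read from 2 lists of DEGs, since a gene that passes a threshold in one tissue and misses it in the other need not differ between them. The interaction of tissue and treatment tests that difference itself.

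SE brains held 14072600 to 22557700 reads on genes, HS brains 8699480 to 16684200, SE fat bodies 4832120 to 12560300 and HS fat bodies 7869540 to 13212500, each to 6 digits. The share of reads that did not align to the bee genome was 32.2% ± 3.0 in SE brains (SD, n = 4) and 33.8% ± 12.0 in HS brains (SD, n = 5), and 63.3% ± 7.1 in SE fat bodies and 58.9% ± 5.7 in HS fat bodies (SD, n = 5 each). The 3 neuron markers measured (nAChRa1, brp and Syt1) summed to 328 to 408 CPM (read counts scaled to a common library size) in SE brains and 388 to 451 CPM in HS brains, against 13.5 to 19.1 CPM in SE fat bodies and 17.7 to 26.2 CPM in HS fat bodies. The 5 fat body markers (vitellogenin and the hexamerins) summed to 18133 to 39312 CPM in SE fat bodies and 13985 to 41841 CPM in HS fat bodies. They reached 328 to 1128 CPM in SE brains and 978 to 7639 CPM in HS brains, with the highest value in the brain of H73. Vitellogenin made up most of this sum. The dissected fat body was abdominal cuticle with its lining, so epidermis and muscle were in the same tubes. In these bulk samples, fewer cells of a type and less RNA per cell cannot be told apart.

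Few genes were called as responding to semen differently in the 2 tissues. Of 9149 genes tested, 38 were called by the interaction (edgeR's quasi-likelihood test, two-sided, adjusted p under 0.05), which is 0.415% of them. For 22 of these the SE over HS effect was higher in brain (0.24% of genes tested), and for 16 it was lower in brain (0.175%). Sorted by the SE over HS contrast of each tissue in the same fit, 11 were called in brain alone, 24 in fat body alone, 2 in both tissues in opposite directions and 1 in both tissues in the same direction. The 2 estimates had opposite signs in 23 of the 38 genes and the same sign in 15. The absolute differences between tissues ran between 0.36 and 8.19 on the log2 scale, with a median of 1.24, and 26 of the 38 exceeded 1. Across all genes the median standard error of the difference was 0.17 and the median difference was -0.01. An unadjusted p under 0.05 was reached by 1262 genes, the 38 included. The count of calls moved with the setting, down to 15 with sequencing lane as a covariate and up to 188 by DESeq2. A gene not called is not shown to respond alike in both tissues.

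**Figure D1:**
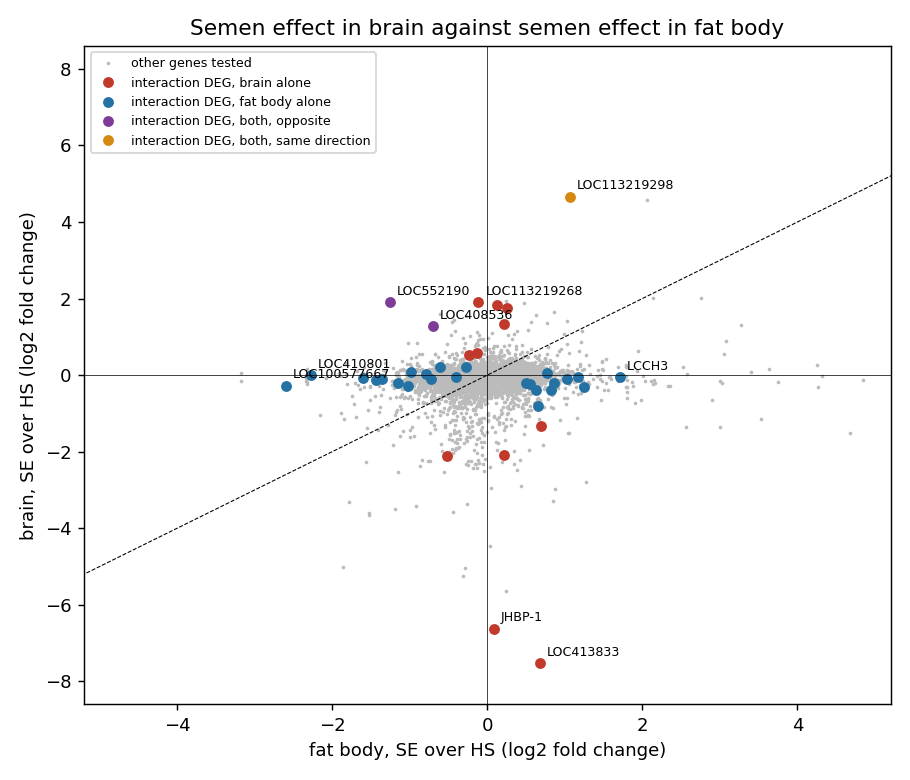
Log2 fold change of SE over HS queens in fat body (horizontal axis) and in brain (vertical axis) for the 9149 genes tested, one point per gene, with the 38 interaction DEGs coloured by the tissue in which they were called. The dashed line marks equal effects. The 24 fat body genes have brain effects between -0.81 and 0.22, and the 11 brain genes have fat body effects between -0.52 and 0.69. The 2 genes called in opposite directions lie in the upper left, higher in SE brains and lower in SE fat bodies. Some genes called in a single tissue lie there too, and 23 of the 38 have estimates of opposite sign.

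Most genes called in a tissue were not called by the interaction. In the joint fit 85 genes (0.929%) were called in brain and 856 (9.36%) in fat body, and with each tissue fitted on its own the counts were 112 of 9030 genes in brain (1.24%) and 303 of 8201 in fat body (3.69%). Single libraries moved both joint counts. Genes called in brain numbered 42, 51 and 50 without SE brain S24, S27 or S29, and 42 to 116 over all single libraries left out. Genes called in fat body numbered 510, 525 and 427 without HS fat body H51, H53 or H73 and 474 without SE fat body S83, and 427 to 1128 in all. Of the 85 brain calls, 14 were interaction calls and 71 were not. Of the 856 fat body calls, 27 were interaction calls and 829 were not. For those 829 genes the median absolute log2 effect was 0.12 in brain and 0.49 in fat body, and a missing interaction call does not show that their effects were equal. Among the genes called in brain, 80% had an estimate of the same sign in fat body, and among those called in fat body 72.2% had the same sign in brain, against 58.6% of all genes. Across the 9149 genes the 2 effects had a Pearson r of 0.15 and a Spearman rho of 0.22, given as a description, since genes within the same libraries are not independent. Of the 23 genes called in both tissues, 21 moved in the same direction.

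The 2 genes called in opposite directions were higher in SE brains and lower in SE fat bodies. LOC552190, an uncharacterized gene on chromosome 12, had 8.99, 9.87, 6.80 and 9.48 CPM in SE brains, against 2.44, 1.49, 2.07, 1.71 and 3.94 CPM in HS brains. In fat bodies it had 82.5, 40.0, 48.1, 79.3 and 34.7 CPM in SE queens, against 136, 139, 131, 73.8 and 197 CPM in HS queens. Every SE brain lay above every HS brain, while in fat body the HS library of H74 lay among the SE libraries. The log2 effect was 1.92 ± 0.35 in brain and -1.26 ± 0.27 in fat body (standard errors), and the difference was 3.17 ± 0.44 (edgeR adjusted p = 0.00063). This gene was called by the interaction in each of the other 18 settings tried and without each library in turn. Its sorting as opposite did not hold in all of them. With sequencing lane as a covariate, or with the brains of S83 and SP16 added, 0 genes were called in opposite directions.

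LOC408536, matched by the study to Drosophila Ance-5, a member of the family of angiotensin-converting enzyme-like peptidases, showed the same pattern at higher levels. It had 34.2, 38.0, 47.7 and 21.5 CPM in SE brains, against 9.45, 13.9, 16.2, 12.4 and 19.8 CPM in HS brains. Fat bodies held 182, 161, 112, 115 and 115 CPM in SE queens, against 240, 185, 244, 256 and 185 CPM in HS queens. The groups did not overlap in either tissue, although SE fat body S24 came within a few CPM of the lowest HS fat bodies. The difference between tissues was 1.99 ± 0.33 on the log2 scale (adjusted p = 0.0031). The edgeR adjusted p was 0.051 with queen as a block and 0.068 with the brains of S83 and SP16 added. LOC408536 spans 5 smaller annotated genes, none of which passed the filter on low counts, and reads from overlapping genes cannot be assigned with certainty. This limit is not particular to LOC408536, since 14 of the 38 interaction DEGs overlap another annotated gene. LOC552190, LOC413472, LOC410801 and LOC725093 are among them.

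The largest rise in brain was that of LOC113219298, a receptor similar to Mth2 and so of the methuselah family of G protein-coupled receptors. It had 7.23, 9.53, 11.6 and 6.07 CPM in SE brains, against 0.97, 0.05, 0.15, 0.10 and 0.59 CPM in HS brains. Its fat body levels were 12.6, 16.1, 18.7, 8.41 and 13.9 CPM in SE queens, against 4.55, 5.99, 4.02, 10.4 and 8.39 CPM in HS queens. SE brains thus stood at levels close to those of fat bodies, HS brains were near 0, and in fat body HS library H74 overlapped the SE libraries. It was called in both tissues, with a log2 effect of 4.66 ± 0.44 in brain and 1.06 ± 0.31 in fat body, and the effects differed by 3.60 ± 0.55 (edgeR adjusted p = 0.0015).

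Of the 11 genes called in brain alone, 6 were higher in SE brains. LOC113219268, an uncharacterized gene on chromosome 15, had 19.7, 33.4, 22.1 and 17.3 CPM in SE brains, against 6.14, 5.14, 6.66, 5.96 and 6.85 CPM in HS brains. Its fat body levels were 89.7, 57.9, 59.1, 52.6 and 58.0 CPM in SE queens, against 69.3, 55.0, 59.6, 89.8 and 67.1 CPM in HS queens. The brains separated by treatment with a wide gap, and the fat bodies were mixed. The log2 effect was 1.91 ± 0.22 in brain and -0.12 ± 0.19 in fat body, a difference of 2.02 ± 0.29 (edgeR adjusted p = 0.00063).

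LOC413472 encodes innexin shaking-B, a gap junction protein that in Drosophila forms electrical synapses. It had 10.7, 13.4, 15.5 and 10.04 CPM in SE brains, against 3.22, 3.70, 4.22, 3.06 and 3.99 CPM in HS brains. Fat bodies held 19.1, 26.1, 27.6, 21.3 and 21.7 CPM in SE queens, against 21.0, 20.8, 18.9, 21.4 and 15.3 CPM in HS queens. All SE brains exceeded all HS brains, whereas the fat body groups overlapped. The difference between tissues was 1.51 ± 0.21 on the log2 scale (edgeR adjusted p = 0.00063).

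LOC413844, named after ABCG5, a sterol transporter of mammals, had 12.9, 15.0, 10.6 and 10.9 CPM in SE brains, against 3.51, 2.57, 3.997, 1.92 and 5.45 CPM in HS brains. Its fat body levels ranged between 27.2 and 40.1 CPM in SE queens and between 26.1 and 38.6 CPM in HS queens. All SE brains lay above all HS brains, and the fat body groups, both above every brain, overlapped. The difference was 1.70 ± 0.33 (adjusted p = 0.013). LOC408570, which has no further name, averaged 49.95 ± 6.79 CPM in SE brains and 19.69 ± 1.48 CPM in HS brains (SD, n = 4 and 5), with a difference between tissues of 1.12 ± 0.26 (adjusted p = 0.050, just under the threshold). LOC726966 and LOC551572 rose less in brain, by 0.59 and 0.52 on the log2 scale, with fat body effects of -0.14 and -0.23. With queen as a block LOC551572 was not called (edgeR adjusted p = 0.14).

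**Figure D2:**
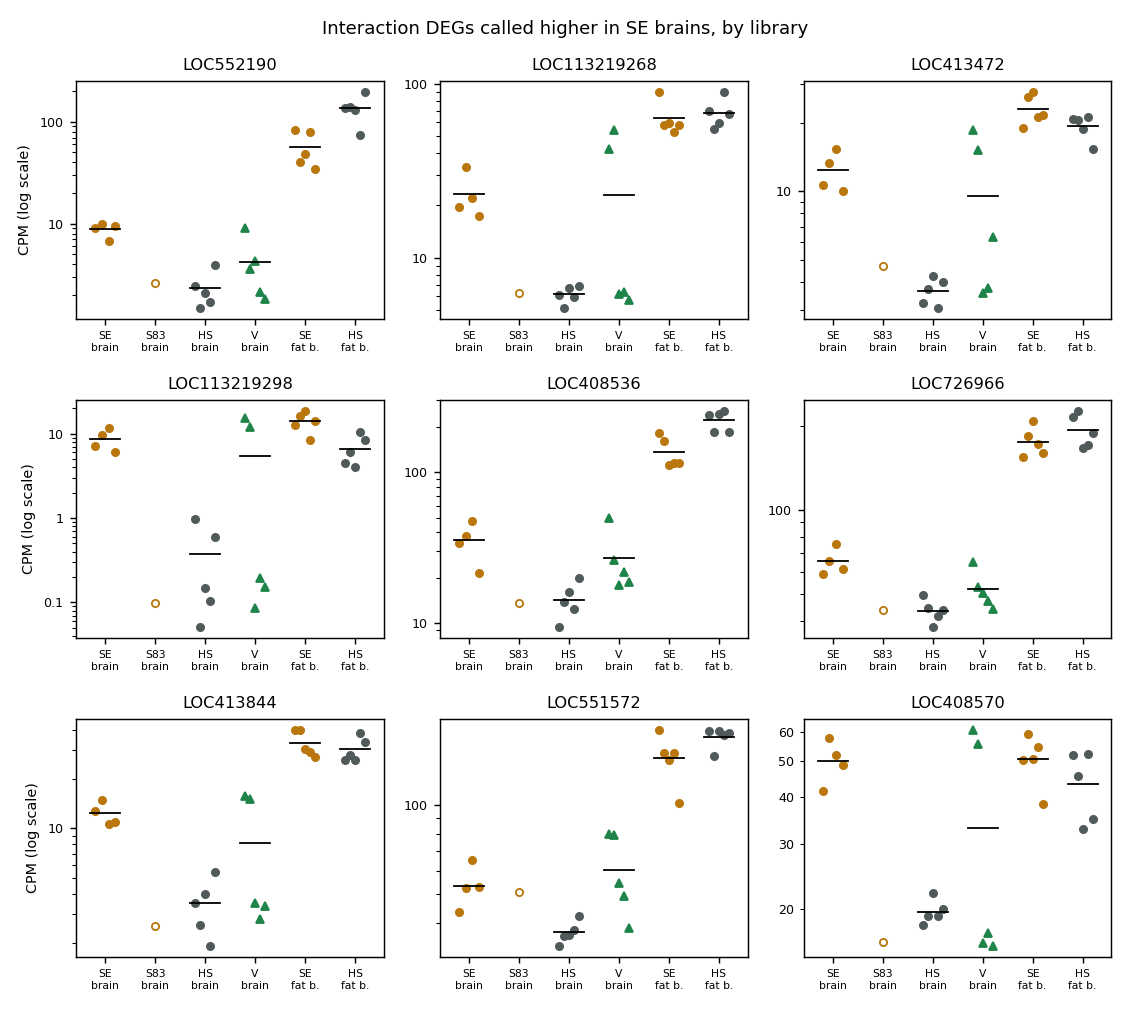
CPM on a log scale, by library, of the 9 interaction DEGs called higher in SE brains. Filled circles are SE (ochre) and HS (grey) libraries, the open circle is the brain of SE queen S83, which was not in the fit, green triangles are the brains of 5 uninjected virgin (V) queens, and bars are group means. S83 and V brains were scaled together with all 38 libraries. In 8 of the 9 genes S83 lies nearer to the HS brains than to the SE brains, and the V brains of C20 and C49 lie nearer to the SE brains in 9 and 7 of the 9.

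The 9 genes called higher in SE brains include the opposite pair and the Mth2-like receptor. Their mean CPM in HS fat bodies was 2.21 to 58.1 times that in HS brains. These means belong to the contrast that chose the genes, so the ratios are a description only. The trait was not particular to the 9. HS fat bodies had the higher mean in 26 of all 32 rises called in brain (81.25%), and in 48.3% of all genes tested. In SE queens the levels could be close, as for LOC408570 with means of 49.95 CPM in brains and 50.6 CPM in fat bodies. The summed fat body markers were lower in SE brains (328 to 1128 CPM) than in 4 of 5 HS brains (1874 to 7639 CPM in those 4). The HS brain at 978 CPM lay among the SE brains. This sum was mostly vitellogenin, with means of 776 CPM in SE brains and 3047 CPM in HS brains. The hexamerins differed little, with means of 25.2 and 23.8 CPM for HEX70b and 13.5 and 16.1 CPM for Hex110. Hex70a averaged 3.23 and 3.40 CPM, and Hex70c 0.09 CPM in each.

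The brain of S83 went against its label in these genes. Scaled with all 38 libraries, it had 6.28 CPM of LOC113219268, 4.67 CPM of LOC413472, 0.10 CPM of LOC113219298 and 2.53 CPM of LOC413844, within the range of the HS brains except for LOC413472, which lay just above it. With the brains of S83 and of SF queen SP16 added to the fit, 24 genes were called by the interaction, 21 of them among the 38, and none was called in brain alone. In that fit no gene was called for SE over HS in brain, with 1119 interactions at an unadjusted p under 0.05. The edgeR adjusted p of the interaction then became 0.12 for LOC113219268, 0.21 for LOC413472, 0.19 for LOC113219298 and 0.24 for LOC413844, and stayed at 0.020 for LOC552190.

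Among the brains of 5 uninjected virgin queens, those of C20 and C49 stood above the other 3 in most of the same genes. LOC113219268 had 42.3 and 54.5 CPM in the brains of C20 and C49, against 6.18, 6.33 and 5.70 CPM in those of C64, C68 and C77. LOC413472 had 18.6 and 15.3 CPM in C20 and C49, against 3.54, 3.74 and 6.31 CPM in the other 3. LOC113219298 had 15.2 and 11.9 CPM in C20 and C49, against 0.09, 0.20 and 0.15 CPM. LOC413844 and LOC408570 split in the same way, with 15.9 and 15.2 CPM of LOC413844 and 60.7 and 55.4 CPM of LOC408570 in C20 and C49. The other 3 had at most 3.499 and 17.26 CPM. LOC551572 had 79.6 and 79.2 CPM in C20 and C49, but the others were not all low. C64 at 54.6 CPM and C68 at 49.5 CPM lay within the range of the SE brains (44.0 to 66.0 CPM on this scaling), and C77 had 38.6 CPM. The gap was small for LOC726966, with 65.2 and 52.7 CPM in C20 and C49 and at most 50.3 CPM in the others, and for LOC408536, with 49.7 and 26.1 CPM and at most 22.0 CPM. LOC552190 did not split, with 9.04 CPM in C20, 3.60 CPM in C49 and 4.28 CPM in C64. The C20 brain, which received no semen, thus stood within or above the range of the SE brains in all 9 genes. The C49 brain lay below it for LOC552190 (6.88 to 9.99 CPM in SE brains on this scaling) and LOC726966 (59.3 to 76.5 CPM), and within or above it for the other 7.

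The unaligned share of each library, in which viral reads are included, followed that split without following the HS group. It was 34.3% and 25.1% in C20 and C49, between 4.24% and 5.37% in the other 3 virgin brains, 4.05% in S83 and 6.08% in SP16. In HS brains, which were low for all these genes, it was 22.1% to 53.6%, and in SE brains 28.2% to 35.3%. For the genes that split in this way, levels were therefore low at both small and large shares of unaligned reads, and the part of infection in them was not tested. With the logit of this share as a covariate, 32 genes were called by the interaction, 30 of them among the 38.

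The other 5 genes called in brain alone were lower in SE brains. LOC410829, which has no further name, had 33.1, 26.8, 43.5 and 44.1 CPM in SE brains, against 150, 130, 203, 148 and 163 CPM in HS brains. In fat bodies it had 294, 173, 187, 242 and 200 CPM in SE queens, against 308, 298, 417, 248 and 295 CPM in HS queens. The brain groups were far apart, and in fat body S24 lay among the HS libraries. The log2 effect was -2.10 ± 0.24 in brain and -0.52 ± 0.21 in fat body, a difference of -1.59 ± 0.31 (edgeR adjusted p = 0.015). It was 180 CPM in the brain of S83, and 54.3 and 74.9 CPM in the virgin brains C20 and C49, against 167 to 222 CPM in the other 3. With S83 and SP16 added the edgeR adjusted p was 0.56. LOC410829 was called with queen as a block (adjusted p = 0.0078), and missed the threshold without SE brain S24 (adjusted p = 0.051) and without the 3 HS brains named next (adjusted p = 0.16).

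JHBP-1, whose symbol stands for a juvenile hormone binding protein, and LOC413833 were high in 3 of the 5 HS brains. JHBP-1 had 3.77, 3.52, 4.48 and 4.61 CPM in SE brains, against 469, 328 and 1223 CPM in HS brains H51, H73 and H75 and 4.68 and 3.37 CPM in HS brains H53 and H74. LOC413833 had 0.45, 0.35, 0.17 and 0.69 CPM in SE brains, against 68.3, 73.7 and 261 CPM in H51, H73 and H75 and 0.93 and 0.98 CPM in H53 and H74. For JHBP-1 the SE brains thus overlapped with 2 of the 5 HS brains. Every brain outside the fit was high, with 234 to 1696 CPM of JHBP-1 and 81.8 to 178 CPM of LOC413833 in S83, SP16 and the 5 virgin queens. Without H51, H73 and H75, a setting chosen after seeing the data, the difference between tissues was -0.06 for JHBP-1 (adjusted p = 0.99) and -1.81 for LOC413833 (adjusted p = 0.64), against -6.71 and -8.19 with them (adjusted p = 0.030 and 0.013). With queen as a block the edgeR adjusted p was 0.34 for JHBP-1 and 0.17 for LOC413833, and with separate fits for each tissue it was 0.084 and 0.061.

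Among the SE and HS brains, the muscle marker TpnI was highest in H51, H73 and H75. Of the muscle list, TpnI, a troponin, was measured and TpnT was at 0, and their sum was 5.08 to 23.6 CPM in SE brains, against 48.3, 53.1 and 128 CPM in H51, H73 and H75 and 8.11 and 8.59 CPM in H53 and H74. The 5 head gland markers, of which Hbg3 was at 0, summed to 12.6 to 60.1 CPM in SE brains and to 28.5 to 409 CPM in HS brains. LOC406105 averaged 28.6 CPM in SE brains and 99.3 CPM in HS brains. Mrjp1 averaged 1.59 and 51.3 CPM, with a highest brain value of 255 CPM, so its mean rested largely on a single brain. Mrjp2 averaged 1.82 and 10.1 CPM, and Mrjp3 0.28 and 1.44 CPM. In fat bodies the muscle sum was 543 to 909 CPM in SE queens and 635 to 928 CPM in HS queens. The part of other head tissues in JHBP-1 and LOC413833 was not tested. With the muscle marker level as a covariate, also chosen after seeing the data, 28 genes were called by the interaction, 24 of them among the 38.

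**Figure D3:**
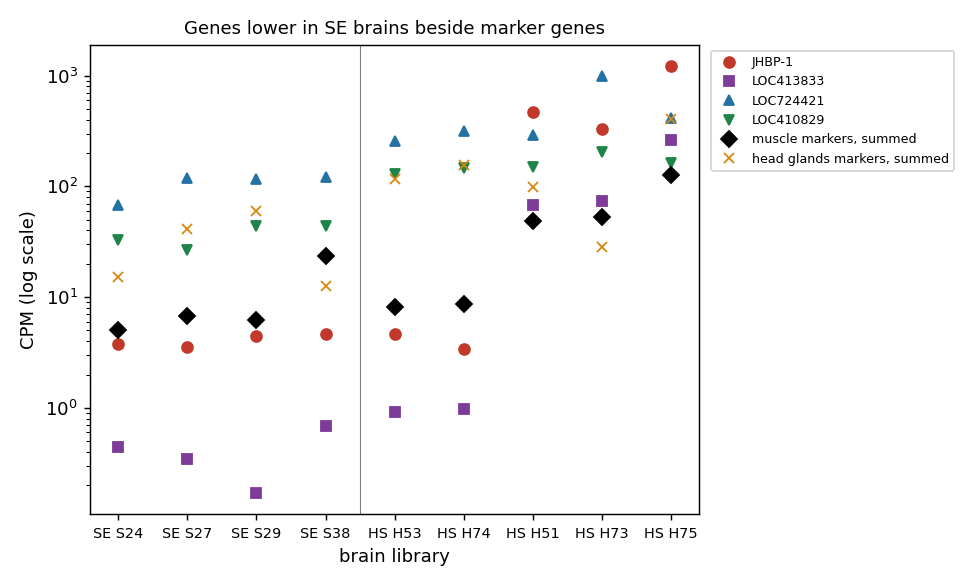
CPM on a log scale of 4 genes called lower in SE brains and of the summed muscle and head gland markers in each of the 4 SE and 5 HS brain libraries (symbols as in the legend). JHBP-1 and LOC413833 are high only in HS brains H51, H73 and H75, which also have the highest muscle marker sums of 48.3 to 128 CPM, while LOC410829 and LOC724421 are higher in all 5 HS brains than in any SE brain.

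LOC724421 and LOC724838, the last of the 5, were lower in every SE brain than in any HS brain. LOC724421 had 67.4, 120, 117 and 120 CPM in SE brains, against 293, 257, 988, 317 and 417 CPM in HS brains, and 7608 to 14619 CPM in SE fat bodies, against 6890 to 12034 CPM in HS fat bodies. Brain levels were thus a small part of fat body levels. The highest HS brain, H73, also had the highest fat body marker sum of the HS brains, which was mostly vitellogenin. The difference between tissues was -2.31 ± 0.45 for LOC724421 (edgeR adjusted p = 0.013) and -2.02 ± 0.42 for LOC724838 (adjusted p = 0.029). With queen as a block the adjusted p was 0.074 for LOC724421 and 0.051 for LOC724838. For LOC724838 the estimates pointed in opposite directions, -1.32 ± 0.32 in brain and 0.69 ± 0.27 in fat body, and neither tissue's groups overlapped.

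**Figure D4:**
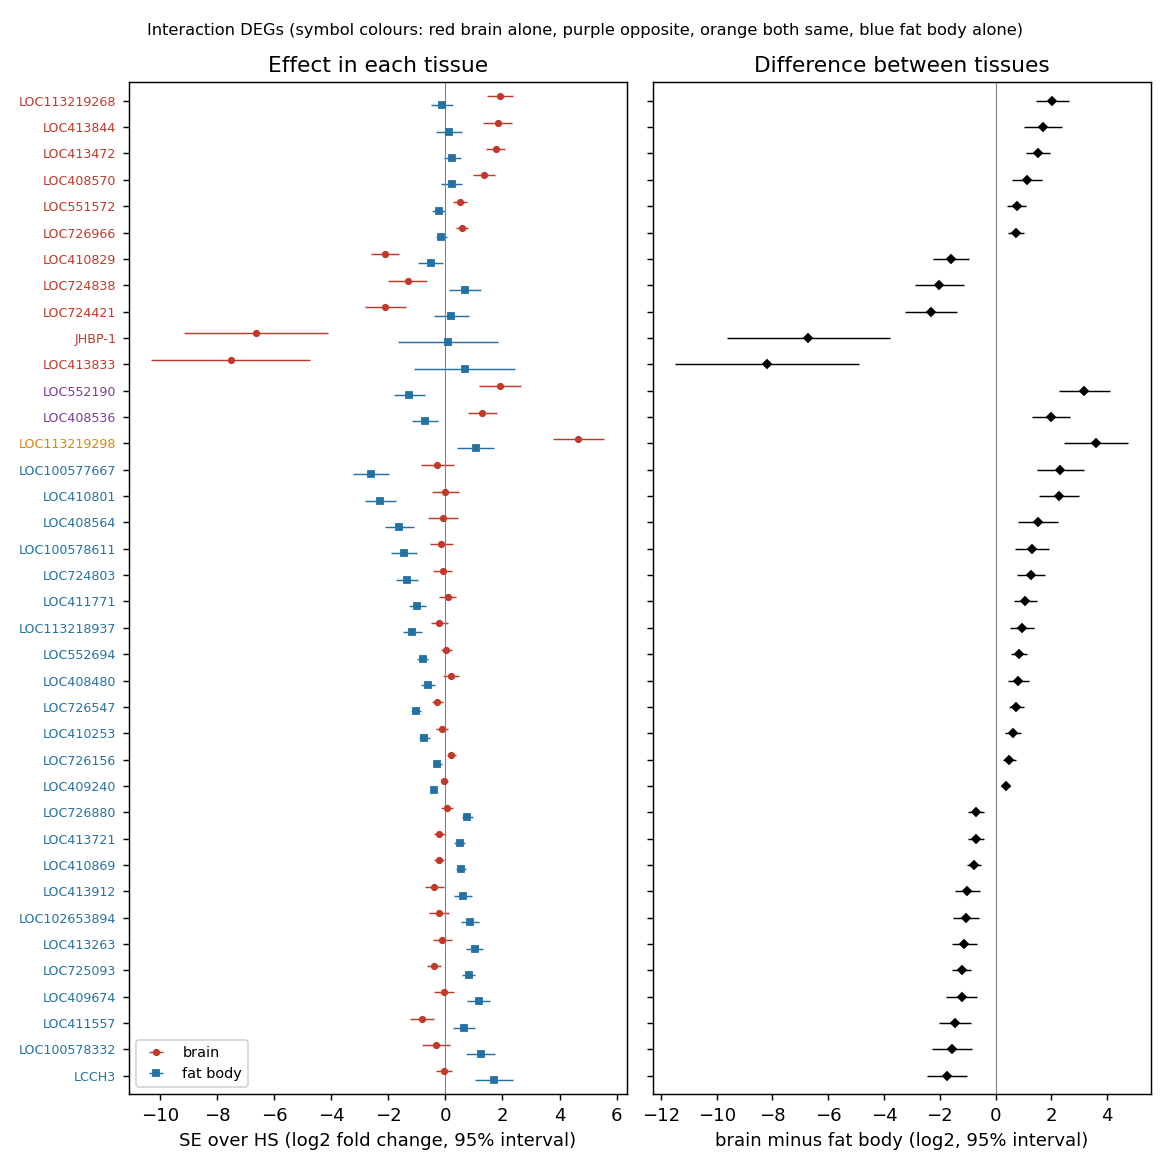
The 38 interaction DEGs, one per row. The left panel shows the log2 fold change of SE over HS in brain (red circles) and fat body (blue squares), the right panel the brain effect minus the fat body effect, and lines are 95% intervals of the fit. Symbols are coloured by sorting. The brain estimates of the 24 fat body genes lie between -0.81 and 0.22, the fat body estimates of the 11 brain genes between -0.52 and 0.69, and the 2 widest intervals belong to JHBP-1 and LOC413833.

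The 24 genes called in fat body alone formed the larger group, 13 lower and 11 higher in SE fat bodies. Their brain effects ran between -0.81 and 0.22 on the log2 scale and their fat body effects between -2.60 and 1.71. SE and HS libraries did not overlap in brain for 5 of the 24 and in fat body for 17 of the 24, against 7.21% of all genes in brain and 4.54% in fat body. In fits of each tissue on its own, 1 of the 24 was called in brain and 20 in fat body. LCCH3, among the 24, did not pass the filter on low counts in fat body alone and was not tested there. The 24 were chosen by the contrast of these same libraries, so the counts of overlap and of calls are a description only.

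The largest falls in SE fat bodies among the 38 were those of LOC100577667 and LOC410801. LOC410801 encodes cathepsin L1, a lysosomal cysteine protease. It had 65.7, 54.7, 56.1 and 58.6 CPM in SE brains, against 52.1, 60.0, 66.8, 48.5 and 66.5 CPM in HS brains. Fat bodies held 6.44, 5.77, 8.75, 8.50 and 10.5 CPM in SE queens, against 57.4, 50.6, 41.4, 15.0 and 32.7 CPM in HS queens. All SE fat bodies lay below all HS fat bodies, with H74 closest to them, and the brains were mixed. The log2 effect was 0.00 ± 0.23 in brain and -2.28 ± 0.26 in fat body, a difference of 2.28 ± 0.35 (edgeR adjusted p = 0.0015).

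LOC100577667, WAS/WASL-interacting protein family member 3, belongs to a family that binds regulators of actin filaments. It had 4.48 to 7.79 CPM in SE brains, against 5.95 to 8.66 CPM in HS brains. Its fat body levels were 2.48, 2.04, 1.17, 2.30 and 1.89 CPM in SE queens, against 17.7, 10.9, 15.6, 5.22 and 10.5 CPM in HS queens. The brains overlapped and the fat bodies did not. The difference between tissues was 2.32 ± 0.41 (adjusted p = 0.0065). LOC724803, neprilysin-4, of a family of metallopeptidases that degrade small peptides, had 1.95 to 3.48 CPM in SE fat bodies and 5.44 to 7.98 CPM in HS fat bodies, with a difference of 1.26 ± 0.24 (adjusted p = 0.013, and 0.051 with queen as a block).

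Smaller falls in fat body came with close replicates. LOC552694, matched to Drosophila PTP-ER, a tyrosine phosphatase of the Ras and MAP kinase pathway, had 58.8, 58.1, 52.1 and 55.5 CPM in SE brains, against 58.1, 58.5, 54.0, 49.8 and 53.1 CPM in HS brains. In fat bodies it had 14.1, 14.3, 14.0, 15.4 and 12.1 CPM in SE queens, against 21.4, 25.5, 27.1, 24.03 and 23.1 CPM in HS queens. The fat bodies stood apart and the brains covered the same range, and the difference was 0.83 ± 0.14 (edgeR adjusted p = 0.0027).

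LOC726547, matched to abrupt, a zinc finger transcription factor that shapes dendrites in Drosophila, had lower estimates in SE queens in both tissues, and the lower one in fat body. It had 168, 163, 142 and 149 CPM in SE brains, against 206, 191, 191, 182 and 170 CPM in HS brains. Fat bodies held 65.4, 64.7, 62.3, 74.7 and 58.4 CPM in SE queens, against 128, 141, 158, 127 and 108 CPM in HS queens. Neither tissue's groups overlapped. The log2 effect was -0.28 ± 0.09 in brain, which was not called (adjusted p = 0.18), and -1.02 ± 0.09 in fat body, a difference of 0.75 ± 0.12 (adjusted p = 0.0031).

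LOC411771, similar to glutamate decarboxylase, the enzyme family that includes the maker of the transmitter GABA, had 17.5 to 20.9 CPM in SE brains, against 16.0 to 19.5 CPM in HS brains. Its fat body levels were 21.6, 18.3, 24.4, 18.2 and 14.3 CPM in SE queens, against 45.1, 35.1, 50.9, 28.3 and 30.0 CPM in HS queens. The SE fat bodies were at the level of the brains and the HS fat bodies were above it. The difference was 1.06 ± 0.20 (edgeR adjusted p = 0.013, and 0.062 with queen as a block).

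The other genes called lower in fat body alone had interactions of 0.36 to 1.52. They include LOC410253, matched to vrille, a transcription factor of the Drosophila clock (134 to 152 CPM in SE fat bodies, 217 to 254 CPM in HS fat bodies), and LOC408564, a fatty acid transport protein (77.6 to 137 CPM in SE fat bodies, 118 to 419 CPM in HS fat bodies). They also include LOC408480, matched to ced-6, an adaptor for the engulfment of dying cells in Caenorhabditis elegans (871 to 1286 CPM in SE fat bodies, 1436 to 1908 CPM in HS fat bodies). In LOC408564 and in LOC100578611 the fat body groups overlapped, with the HS library H74 at 118 and 10.5 CPM, and in LOC726156 they overlapped between 66.2 CPM, the lowest HS fat body, and 67.7 CPM, the highest SE fat body. LOC113218937, LOC726156 and LOC409240 complete the 13. All 7 of these had an edgeR adjusted p between 0.033 and 0.050, and none was called with queen as a block. The adjusted p was then 0.055 for LOC410253, 0.051 for LOC408564 and LOC408480, 0.080 for LOC113218937, 0.084 for LOC726156, 0.11 for LOC409240 and 0.19 for LOC100578611.

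**Figure D5:**
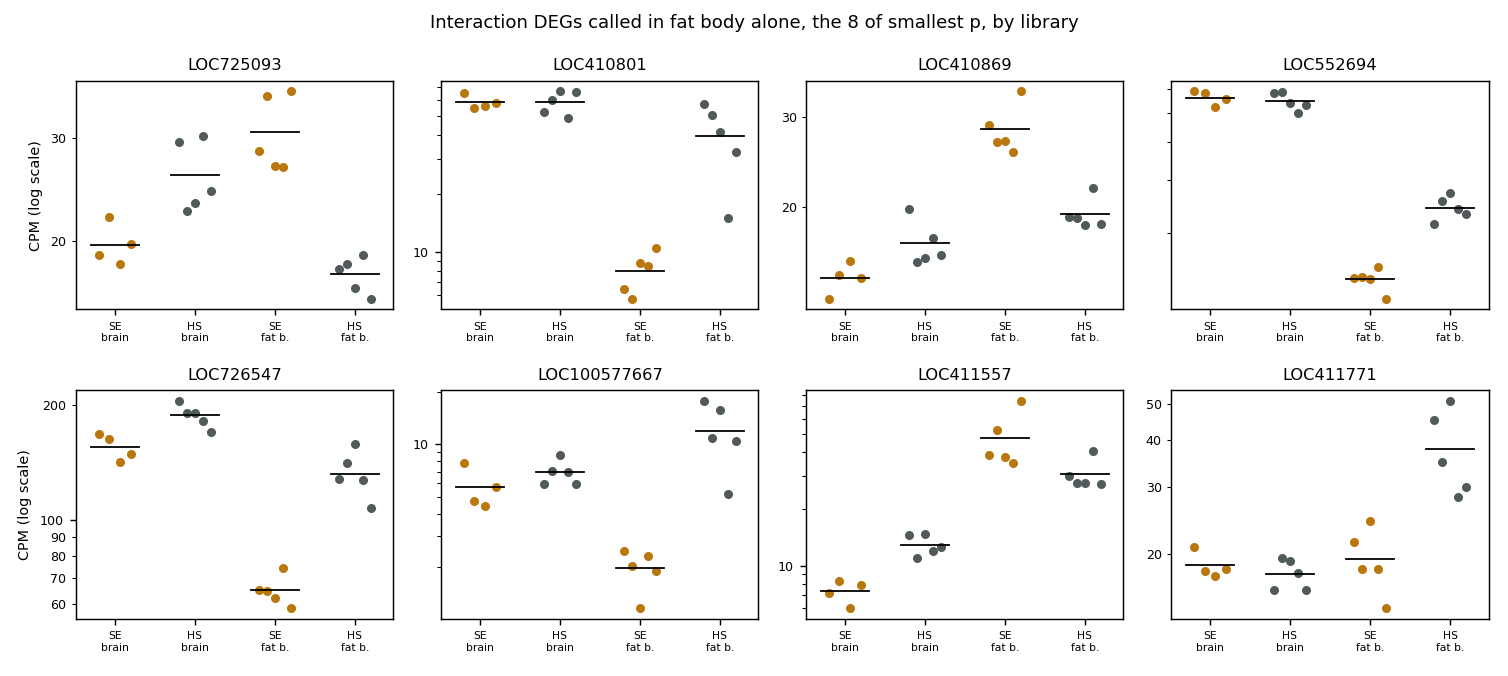
CPM on a log scale, by library, of the 8 genes of smallest p among those called in fat body alone, in SE (ochre) and HS (grey) libraries of brain and fat body, with bars at the group means. In 7 of the 8 the SE and HS fat bodies do not overlap, the exception being LOC411557, where HS fat body H74 reached 40.6 CPM.

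Of the 11 genes called higher in fat body alone, LOC725093 had the smallest p of the whole comparison. Matched to Krueppel target at 95D of Drosophila, it had 18.9, 21.9, 18.3 and 19.7 CPM in SE brains, against 29.6, 22.5, 23.2, 30.3 and 24.3 CPM in HS brains. In fat bodies it had 28.5, 35.6, 26.8, 26.7 and 36.2 CPM in SE queens, against 17.8, 18.2, 16.6, 18.9 and 15.9 CPM in HS queens. The groups did not overlap in either tissue and the order was reversed between them. The log2 effect was -0.40 ± 0.12 in brain, where it was not called (adjusted p = 0.12), and 0.82 ± 0.11 in fat body, and the difference was -1.22 ± 0.16 (edgeR adjusted p = 0.00063). LOC725093 was called by the interaction in each of the other 18 settings.

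LOC410869, matched to larsen, a subunit of the endosomal ESCRT-II complex in Drosophila, had 13.2, 14.7, 15.7 and 14.5 CPM in SE brains, against 19.8, 15.6, 15.9, 17.4 and 16.1 CPM in HS brains. Fat bodies held 28.98, 26.9, 26.99, 25.7 and 33.8 CPM in SE queens, against 19.1, 19.004, 18.4, 21.8 and 18.5 CPM in HS queens. The fat bodies separated cleanly, and the brains overlapped slightly. The difference was -0.78 ± 0.12 (edgeR adjusted p = 0.0026). LOC411557 had the same signs, with 5.95 to 8.31 CPM in SE brains, 10.998 to 14.66 CPM in HS brains, 34.9 to 74.7 CPM in SE fat bodies and 27.01 to 40.55 CPM in HS fat bodies, and a difference of -1.46 ± 0.27 (adjusted p = 0.013). Its SE and HS libraries overlapped in fat body and not in brain. The joint fit gave an effect of -0.81 ± 0.20 in brain (adjusted p = 0.058) and 0.65 ± 0.18 in fat body (adjusted p = 0.025). With each tissue fitted on its own the calls changed places, and LOC411557 was called in brain (adjusted p = 0.012) and not in fat body (adjusted p = 0.074).

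LCCH3, the Drosophila namesake of which is a subunit of GABA-gated chloride channels, was a gene of the brain that differed by treatment in fat body. It had 62.0, 70.7, 58.8 and 67.3 CPM in SE brains, against 71.2, 74.3, 58.8, 66.7 and 63.4 CPM in HS brains. Levels in fat body were 2.72, 1.92, 1.46, 0.71 and 1.59 CPM in SE queens, against 0.38, 0.51, 0.42, 0.66 and 0.26 CPM in HS queens. The fat body groups did not overlap, but the lowest SE and the highest HS library were nearly equal, and counts there were small. LCCH3 passed the filter on low counts in the joint fit, which held the brains, but not in the fit of fat body alone. The difference was -1.76 ± 0.35 (edgeR adjusted p = 0.015, and 0.084 with queen as a block). It was the 1 gene called of the 16 ligand-gated channels tested, whose median difference was -0.06. With 0.415% of all genes called, a single member is no result about the list.

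LOC409674, a peroxidase, was likewise a brain gene, with 295 to 372 CPM in SE brains and 315 to 381 CPM in HS brains. The fat body values were 15.4, 20.1, 15.9, 10.8 and 15.1 CPM in SE queens, against 6.83, 4.96, 7.36, 9.97 and 4.85 CPM in HS queens. The fat bodies did not overlap, S38 and H74 being the closest. The difference was -1.22 ± 0.26 (edgeR adjusted p = 0.033, and 0.051 with queen as a block). LOC413263, a phosphate cotransporter, had 8.50 to 12.4 CPM in SE brains, against 9.95 to 15.3 CPM in HS brains, and 66.4 to 86.3 CPM in SE fat bodies, against 29.4 to 47.8 CPM in HS fat bodies. Its difference was -1.13 ± 0.21 (adjusted p = 0.013, and 0.051 with queen as a block). LOC726880, similar to a lipase-related protein, and LOC102653894, matched to Drosophila Ude, a factor that degrades uracil-containing DNA, were also higher in SE fat bodies, by 0.77 and 0.86 on the log2 scale, and neither was called with queen as a block (adjusted p = 0.072 each). LOC413721, LOC100578332 and LOC413912 complete the 11, and the SE and HS fat bodies of these 3 overlapped.

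LOC409674, LOC724421 and LOC408536 lay within 105 kb of each other on chromosome 15 (Amel_HAv3.1, chr15:5238092-5342670). Of the 5 genes tested in that stretch, the 2 between them were not called, LOC410621 with a difference of -1.18 (edgeR adjusted p = 0.093) and LOC724466 with 0.63 (adjusted p = 0.42). The 3 called neighbours differed in pattern: LOC409674 was higher in SE fat bodies, LOC724421 lower in SE brains, and LOC408536 higher in SE brains and lower in SE fat bodies.

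The functional gene lists held 1 of the 38 genes, LCCH3, and since 0.415% of all genes were called, counts of 0 or 1 in lists of these sizes are not a result about the lists. No other member was called by the interaction among 10 odorant binding proteins, 5 chemosensory proteins, 6 major royal jelly proteins, 2 antimicrobial peptides, 8 genes of immune signalling, 9 neuropeptides and their receptors, 8 amine receptors, 9 genes of hormone signalling, 7 cytochrome P450 genes and 5 storage and yolk proteins tested. Nor was any among 7 cytosolic ribosomal proteins, 1 proteasome gene, 2 clock genes and 3 opsins. The median differences of these lists ran between -1.29 for major royal jelly proteins and 0.25 for chemosensory proteins, beside -0.01 for all genes. Markers of other tissues were not called either, with medians of -2.70 for 4 head gland genes, -2.03 for the muscle gene TpnI, -0.32 for 15 genes of cuticle and epidermis and -0.02 for the hemocyte gene PPO. Obp14 lay just outside the threshold, with a difference of -1.84 ± 0.43 (edgeR adjusted p = 0.061). The last 3 genes inside it, LOC408570, LOC409240 and LOC408564, had an adjusted p of 0.050 each, to 2 digits, and the first 2 outside, LOC724885 and LOC551261, 0.061.

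Genes that the study singled out on these same samples give no independent evidence, and were counted for that reason only. Of 10 genes named as higher in brains, 5 were interaction calls with a higher effect in brain, and of 10 named as lower in brains none was. Of 10 named as higher in fat bodies 2 were called, and of 10 named as lower there 4 were called. Of the 4 genes named for a change in both tissues none was called. LOC411704, the G(i) subunit alpha that inhibits cyclic AMP production, averaged 41.0 CPM in SE brains and 24.6 CPM in HS brains, and 61.0 CPM in SE fat bodies and 35.4 CPM in HS fat bodies. Its difference between tissues was -0.04, with a 95% interval of -0.52 to 0.45. LOC102655893, a non-coding RNA, differed by 0.08 (interval -0.54 to 0.70), LOC107964400, similar to integrin alpha-8, by 0.59 (interval 0.08 to 1.11), and LOC413021, the extracellular matrix protein papilin, by -0.61 (interval -1.12 to -0.09). The edgeR adjusted p of the last 2 missed the threshold, and the intervals allow differences between tissues of about 1 on the log2 scale.

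Seminal fluid was set beside semen for these genes, against the same HS libraries, so the 2 comparisons are not independent. For SF queens the difference between tissues was 2.55 ± 0.52 for LOC552190, 1.74 ± 0.32 for LOC113219268, 1.84 ± 0.24 for LOC413472, 3.76 ± 0.60 for LOC113219298 and 2.31 ± 0.39 for LOC410801. It was 1.40 for JHBP-1, 0.81 for LOC413833, 0.76 for LOC724421 and -0.08 for LOC410829, where SE queens had -6.71, -8.19, -2.31 and -1.59. For LOC724838 the difference was 0.89 in SF queens and -2.02 in SE queens. LOC724838 was higher in SF than in HS brains by 1.55 on the log2 scale, and LOC413263 by 0.77. The difference had the same sign in SF and SE queens for 33 of the 38 genes. Brain effects shared their sign for 7 of the 11 genes called in brain alone, and fat body effects for all 24 called there alone. SF brains SP1 and SP76 had 373 and 1595 CPM of JHBP-1, beside muscle marker sums of 58.2 and 245 CPM. The 2 SF brains limit the precision of every SF value.

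The calls differed in how far they rested on single libraries. Of the 38 genes, 20 were called without each of the 19 SE and HS libraries in turn, and 15 without each queen in turn. Only 5 were called in every fit that gave a value, the leave-one-out fits included. LOC724838 was called in 12 and LOC408570 in 5 of the 19 fits without a library. The queen pairs the tissues, and with queen as a block (22 libraries) 30 genes were called, 18 of them among the 38. Leaving out HS fat body H74 raised the count to 119, which included all 38 and of which 94 were called in fat body alone, and leaving out SE brain S24, S29 or S38 lowered it to 21, 24 and 25. With sequencing lane as a covariate 15 genes were called, all among the 38. SE and HS brains shared 2 of their 6 lanes, and SE and HS fat bodies 4 of 6. Lane and treatment therefore cannot be fully told apart, least of all in brain.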

How the data were processed

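RNA was sequenced from the brain and fat body of single queens. The authors trimmed reads with cutadapt, aligned them with HISAT2 to Amel_HAv3.1 and to viral genomes, and counted them with HTSeq over whole genes, introns included. The strand setting is not given in the sources used here. The deposited values are raw read counts per gene for 12332 genes, all matched to the RefSeq table of the same build. The 5 rows of reads assigned to no gene stayed out of library sizes, and reads aligned but not assigned made up 6.99% to 19.1%.

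Genes were filtered (filterByExpr, minimum count 20), scaled by TMM and fitted with edgeR 4.0.16 (R 4.3.3) by quasi-likelihood over 26 libraries, with a Benjamini-Hochberg threshold of 0.05. The interaction was (SE brain minus HS brain) minus (SE fat body minus HS fat body). CPM values use TMM library sizes, and values of S83, SP16 and virgin brains use a scaling over all 38 libraries. The steps were tested on simulated data. Alternatives used DESeq2 1.42.0 and limma 3.58.1 (voom), other scalings, filters, libraries and covariates. Brain and fat body of a queen come from the same animal, which pairs them. Over 11 queens their deviations from the group means correlated with r between -0.14 and 0.20 (median 0.12), and 8 brains correlated best with their own fat body.

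The genes named were 28 taken by rule (smallest p in each sorting, genes changed in both tissues, and interaction DEGs of the fixed lists). The other 14 DEGs were added so that each of the 38 is accounted for. Members and lists were chosen with earlier results of these data known. Precision rests on library totals and on the 4 or 5 SE or HS libraries per group. The p-values set each effect against the spread within groups of the 26 libraries, and the main fit held no term for queen.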

Additional observations from a re-analysis of the deposited data

Results flagged for a closer look

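The 38 genes whose semen effect differed between brain and fat body by the interaction test are a difference between tissues under the same contrast. In addition, 168 groups of 4 or 5 libraries of the named genes were searched for a single library far from the rest, and 16 were found. Chance gives about 1 in 20 such groups.

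The HS fat body of H74 stood apart in 6 of these 16. It had 21.8 CPM of LOC410869, 40.6 CPM of LOC411557, 56.4 CPM of LOC411704, 415 CPM of LOC102653894, 37.7 CPM of LOC413912 and 118 CPM of LOC408564, each on the side of the SE fat bodies. Other HS libraries that stood apart were H53 in fat body, with 69.9 CPM of LOC413721 and 146 CPM of LOC551572, and H73, with 1908 CPM of LOC408480 in fat body and 988 CPM of LOC724421 in brain. The HS brain of H75 had 261 CPM of LOC413833.

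Among SE libraries, the brain of S24 had 67.4 CPM of LOC724421 and its fat body 89.7 CPM of LOC113219268. The fat body of S38 had 11.4 CPM of LOC100578611, the fat body of S29 had 66.4 CPM of LOC413721, and the brain of S27 had 30.9 CPM of LOC413912. The causes were not tested.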

How the results depend on the processing

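All 38 genes kept the sign of their difference in every fit that gave a value, while the counts moved. By DESeq2 188 genes were called (35 in brain alone, 135 in fat body alone, 4 opposite), including all 38, and by limma-voom 31 (7 in brain alone, 1 opposite). With TMM within each tissue, without a filter on low counts, and with the share of unaligned reads as a covariate, 1 gene was called in opposite directions in each. Adding the brains of S83 and SP16 gave 24 genes, 0 in brain alone and 0 opposite. Adding the virgin queens gave 68, of which 54 were in fat body alone. With lane as a covariate 15 were called, 5 in brain alone, 8 in fat body alone and 0 opposite.

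Chosen after seeing the data, the muscle marker covariate gave 28 genes (7 in brain alone, 1 opposite). Leaving out HS brains H51, H73 and H75 gave 17 (6 in brain alone, 9 in fat body alone, 1 opposite), and separate fits for each tissue gave 80 (43 in fat body alone, 1 opposite). The causes were not tested.

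Leaving out each library gave 21 to 119 genes, 6 to 14 in brain alone, 13 to 94 in fat body alone and 1 to 3 opposite. Leaving out each queen gave 20 to 84, 5 to 14, 9 to 60 and 1 to 3. The lowest counts came without SE brain S24 and without queen H51, the highest without H74. With queen as replicate block 30 genes were called, 18 of them among the 38, and 26 with SE and HS queens only. The sorting by tissue has no value under the block, since tissue effects of treatment are not estimable there.

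The difference of LOC411704, -0.0353, changed sign to 0.0442 under library size alone and 0.0615 with lane as a covariate. That of LOC102655893, 0.0772, changed to -0.0111 with S83 and SP16 added and -0.0530 with lane. Over the fits without a library or queen, LOC411704 ranged between -0.291 and 0.0907 and LOC102655893 between -0.141 and 0.254. Neither was called. Depth limits genes near 0, such as LCCH3 in fat body and LOC113219298 in HS brains.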

Other observations

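Virgin fat bodies, which took no part in the comparison, lay nearer to the HS than to the SE mean in 24 to 26 of the 27 interaction DEGs called in fat body. The genes and both means come from the contrast that chose them. These counts are therefore a description only, with no share over all genes beside them. Of the reads of virgin fat bodies 3.64% to 5.13% were not aligned, against 53.4% to 68.4% in HS fat bodies. The part of infection was not tested. For the 5 genes called lower in SE brains, the virgin brains C64, C68 and C77 and the brain of S83 lay nearer to the HS mean in 5 of 5, and C20 and C49 in 4 of 5.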
